A study of Aspergillus nidulans with 9 samples.

Results

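The comparison described here was that of the Δ*laeA* mutant with the wild type (WT) of the filamentous fungus *Aspergillus nidulans*, over all genes. Its members were the 3 libraries of each genotype, 6 of the 9 RNA-seq libraries in the series. The other 3 were the libraries labelled Δ*veA*, a mutant grown alongside. They entered the model, where they took part in the filter, the scaling and the estimate of the spread. Their changes are given beside those of Δ*laeA* in places. All strains were grown as vegetative cells (Vege) in liquid glucose minimal medium, shaken in the dark at 37 °C for 24 h. WT was 1 strain, and the Δ*laeA* group was also 1 strain, in which the methionine gene *metG* had been used as the marker that replaces *laeA*, in a *methG1 veA* background. The loss of *laeA* and this marker therefore differ together between the groups and cannot be told apart. Nothing in the sources used here says that the libraries within a group are separate cultures, so the p-values measure only the spread between them, which may be technical.

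LaeA is a nuclear protein with a methyltransferase-like fold that is known in aspergilli as a global regulator of secondary metabolism, the making of small molecules that are not needed for growth. In the dark it joins the velvet proteins VelB and VeA in a complex that also acts on development. Genes for 1 secondary metabolite usually lie side by side in a cluster, which is why the order of genes was followed as well as single genes. In bulk RNA such as this, fewer cells of a type and less RNA per cell cannot be told apart.

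Reads on genes ranged from 13396869 to 35755046 in the WT libraries and from 17651082 to 22937065 in the Δ*laeA* libraries. Levels are given as CPM, the counts scaled to a common library size with TMM factors, which assume that most genes do not change, and they are not corrected for gene length. The 50 genes with the most reads took 20.3% to 20.4% of reads in WT and 25.6% to 25.9% in Δ*laeA*. The reads of *veA* went against the label of the libraries labelled Δ*veA* (791 CPM on average, above the 111 CPM of WT), and leaving these libraries out gave 2285 changed genes in Δ*laeA* in place of 2312. Differentially expressed genes (DEGs) differed by more than 2-fold with an adjusted p below 0.05, and a log2 fold change is always Δ*laeA* minus WT.

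The deleted gene was checked first. *laeA* (AN0807) measured 37.9, 35.2 and 34.2 CPM in the WT libraries and 4.96, 6.61 and 5.60 CPM in the Δ*laeA* libraries. The groups did not overlap, and the log2 fold change was -2.63 (SE 0.106, adjusted p = 6.64e-21, edgeR), which still left 80, 139 and 104 reads on the gene in the mutant. Of the genes close to it, AN0805 was a DEG that fell (6.53 to 2.98 CPM, log2 fold change -1.14), whereas AN0806 (-0.24) and AN0808 (-0.34) changed by less than 2-fold. The marker *metG*, which codes for an enzyme of methionine synthesis, went from 31.0, 33.8 and 32.1 CPM in WT to 105, 108 and 111 CPM in Δ*laeA* (log2 fold change 1.74, SE 0.0658, adjusted p = 1.2e-21). *veA*, the partner of *laeA*, was at 111 ± 4.87 CPM in WT and 70.5 ± 2.49 CPM in Δ*laeA* (SD, n = 3 libraries each). Its log2 fold change of -0.65 had an adjusted p of 3.25e-13 (edgeR) and stayed under the 2-fold minimum.

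Of 9481 genes tested, 2312 (24.4%) were DEGs, of which 939 (9.90% of genes tested) were higher and 1373 (14.5%) were lower in Δ*laeA* Vege. Without the fold minimum 6960 (73.4%) had an adjusted p under 0.05, with 36.6% higher and 36.8% lower. In 75.3% of the genes tested the WT and Δ*laeA* libraries did not overlap. Higher genes made up 40.6% of the DEGs (95% Wilson interval 38.6% to 42.6%), and 22.9% when libraries were scaled by their totals alone, a scaling under which the median log2 fold change of all genes went from -0.0041 to -0.33. The falls ran deeper than the rises. More than 4-fold changes were seen in 646 lower and 215 higher genes, and more than 16-fold changes in 199 lower and 14 higher genes. The 939 higher genes held 13.0% ± 0.0932 of the reads in WT and 28.3% ± 0.0760 in Δ*laeA*, and the 1373 lower genes 11.6% ± 0.0321 and 2.24% ± 0.0108 (SD, n = 3 libraries each). DEGs were 14.2% of the 770 tested genes that carry a RefSeq symbol and 25.3% of the 8711 that do not. Most genes below carry no RefSeq symbol and are given by their AN identifiers. This does not mean that they are uncharacterised, but no role is given for them here. The gene lists below hold only members found by a RefSeq symbol, often fewer than the symbols looked for. Their counts of DEGs stand beside the 9.90% higher and 14.5% lower over all genes.

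**Figure D1:**
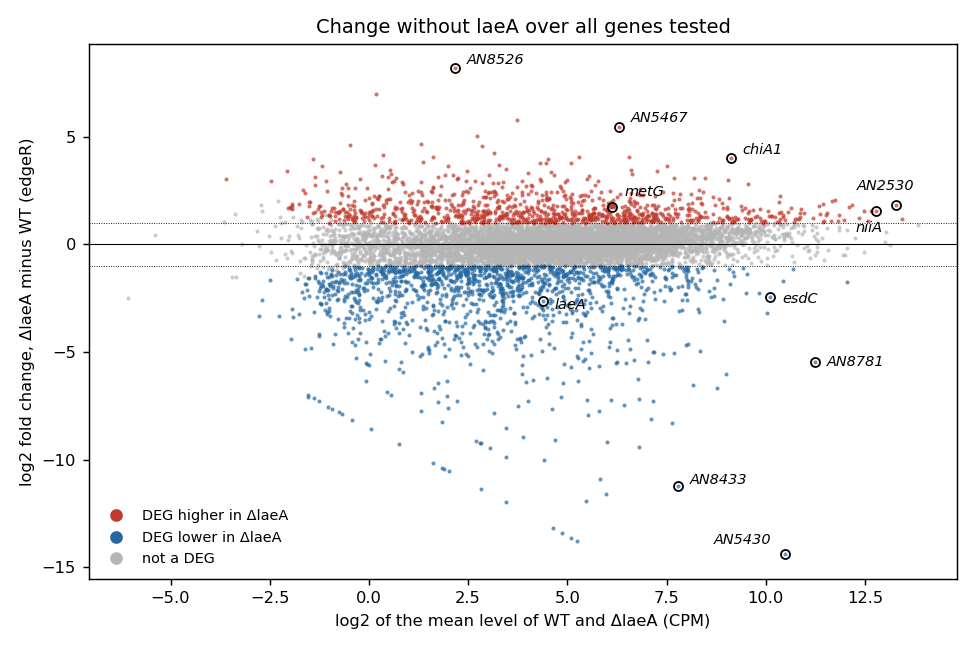
Each point is 1 of the 9481 genes tested, with the log2 of its mean CPM over WT and ΔlaeA on the x axis and its log2 fold change (ΔlaeA minus WT, edgeR) on the y axis, with dotted lines at 2-fold. Red points are the 939 DEGs that were higher and blue points the 1373 that were lower, and the blue cloud reaches much farther from 0 than the red one; the lowest blue points include genes with no read in ΔlaeA, whose fitted change depends on the prior count and is not a measured size.

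DEGs whose libraries did not overlap and that averaged 50 CPM or more in WT or Δ*laeA* made up 7.66% of the genes tested. The largest fall among them was that of AN5430. It had 2953, 2677 and 2930.4 CPM in the WT libraries and 0.124, 0.190 and 0.0538 CPM in the Δ*laeA* libraries, where its 7 reads in all left a log2 fold change of -14.41 (SE 0.111, adjusted p = 1.54e-40, edgeR). AN5430 was among the 10 lower DEGs with the most CPM, and almost no read of it was left in the mutant. AN8433 went from 471, 421 and 428 CPM to 0.124, 0.238 and 0.161 CPM, and AN0964 from 386, 413 and 398 CPM to 0.992, 1.43 and 1.35 CPM. AN1623 fell from a mean of 222 to 0.306 CPM and AN5421 from 51.9 to 0.0793 CPM. None of these genes overlapped between the groups.

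For several genes the mutant held no read at all, so that only a lower limit can be given. AN6784 had 79.4, 72.2 and 75.4 CPM in WT and 0 reads in each Δ*laeA* library, at least 388-fold lower when set against a floor of 3 counts per library. AN10038 was at least 342-fold lower, AN3568 at least 293-fold and AN0147 at least 264-fold. In all, 21 of the lower DEGs had no read in any Δ*laeA* library, with WT means from 0.689 to 75.6 CPM, and 9 of them had none in the libraries labelled Δ*veA* either. No higher DEG lacked reads in all WT libraries. AN10022 (1 read in the mutant, ratio 4965, 95% interval 891 to 196124), AN10044 (2 reads, ratio 3532, interval 978 to 29164) and AN6401 (3 reads, ratio 2099, interval 718 to 10179) came next, where the exact Poisson intervals cover counting error only. The neighbour of AN6784, AN6785, was also a DEG that fell (7.05 to 0.574 CPM, log2 fold change -3.57).

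The largest rise among DEGs that averaged 50 CPM or more in 1 group was that of AN5467, with 4.24, 3.05 and 3.56 CPM in WT against 146, 159.8 and 154 CPM in Δ*laeA* (log2 fold change 5.47, SE 0.0851, adjusted p = 2.64e-32, edgeR). *chiA1*, whose namesake in *A. fumigatus* codes for a chitinase, went from 72.2, 62.2 and 61.2 CPM in WT to 1051, 1005 and 1078 CPM in Δ*laeA* (log2 fold change 4.01, SE 0.0636, adjusted p = 4.78e-31). All 3 mutant libraries of both genes stood far above the 3 WT libraries. *aspf2*, the namesake of a secreted *A. fumigatus* protein linked to zinc uptake, rose from 16.2, 16.4 and 16.3 CPM to 179.6, 178 and 181 CPM. AN2596 rose from 11.1 to 178 CPM and its neighbour AN2597 from 9.20 to 83.5 CPM, whereas AN2595, on their other side, fell from 7.09 to 0.282 CPM (log2 fold change -4.61). Neighbours thus moved in opposite directions there. The other large rises were those of AN11948 (log2 fold change 4.06), AN8915 (3.80), AN5228 (3.64), AN10299 (3.43), AN4126 (3.28), AN4645 (3.10) and AN4049 (3.09). The libraries labelled Δ*veA*, compared with the same WT libraries, gave 4.09 for AN5467 and 4.30 for AN5228, against 0.37 for AN11948, 0.54 for AN8915, -0.46 for AN4126 and -1.72 for *chiA1*.

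Among the DEGs with the most reads, AN4888 rose from 6675, 6923 and 6822 CPM to 15120.2, 15457 and 15297 CPM, and AN2530 from 4215, 4517 and 4412 CPM to 15388, 15928 and 15519 CPM. The next by CPM were *niiA*, *gpdA*, AN2000, AN2286, AN0858, AN3555, AN5781 and *pgkA*, with log2 fold changes from 1.09 for AN2000 to 1.81 for AN3555. With library totals alone AN4888 (0.84), AN2000 (0.77), AN0858 (0.92) and *pgkA* (0.78) stayed higher but were no longer past 2-fold. Among the lower DEGs with most reads, AN8781 went from 4570.2, 4849 and 4779 CPM to 105, 105 and 114 CPM (log2 fold change -5.45) and AN4575 from a mean of 6575 to 1934 CPM (-1.77). AN4264 fell from 1895 to 208 CPM, AN5942 from 1518 to 317 CPM, AN10761 from 2112 to 656 CPM, AN10581 from 1073 to 411 CPM and AN0860 from 1201 to 251 CPM. The groups overlapped for none of these genes.

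**Figure D2:**
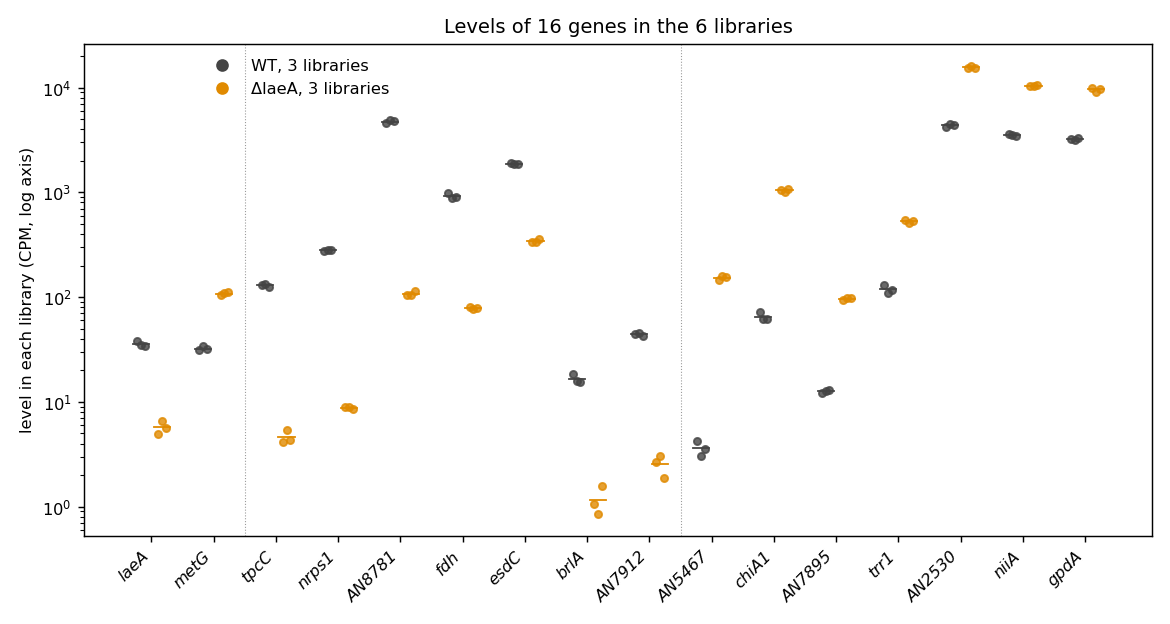
The level of 16 genes (x axis) in CPM on a log axis, with 1 point for each of the 3 WT libraries (grey) and 3 ΔlaeA libraries (orange) and a bar at each mean. The deleted gene laeA and the marker metG stand at the left, then 7 genes that were lower and 7 that were higher in ΔlaeA; for each gene the 3 points of a group lie close together and the groups do not overlap.

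Neighbouring genes often moved together. In chromosome order, 61 runs of at least 4 neighbouring DEGs of 1 direction were found, 40 lower with 201 genes and 21 higher with 105 genes. They held 14.6% of the lower and 11.2% of the higher DEGs. With library totals alone there were 80 runs, of which 11 were higher. Gene order came from the RefSeq assembly and genes too low to test were passed over. When such a gene ended a run, 43 runs remained.

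The longest run held 13 genes, from *tpcI* to AN10039, and all fell. It contains *tpcI*, *tpcC* and *tpcB*, named after the *A. fumigatus* cluster for the polyketide trypacidin, in which *tpcC* codes for the polyketide synthase, and *arp1*, named after a melanin gene of *A. fumigatus*. *tpcC* went from 131, 132 and 124 CPM in WT to 4.15, 5.33 and 4.36 CPM in Δ*laeA*, a log2 fold change of -4.79 (SE 0.0905, adjusted p = 5.07e-30, edgeR). *tpcI* had 129.6, 125 and 127 CPM in WT and 4 reads in each Δ*laeA* library, *arp1* fell from 172 to 0.987 CPM, AN0146 from 282 to 1.78 CPM and *tpcB* from 82.6 to 1.93 CPM. The members thus differed in what was left of them. AN10038 and AN0147 were without reads, AN10035 had 1 read, and AN10021 (41.1 to 6.22 CPM) and AN10039 (11.6 to 2.64 CPM), at one end, kept the largest shares of their WT level. The median log2 fold change of the run was -7.46, also with the genes of 0 to 3 reads at their limit. The edges were sharp: AN0153 (0.34) and AN9540 (0.80), the next genes on either side, were no DEGs, nor were the 3 genes beyond each. *tpcA*, which lies elsewhere, had 1.03 CPM in WT and 2 reads in Δ*laeA* (ratio 28.8, interval 7.98 to 238).

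In the next run, 9 genes from AN8432 to AN11079 fell, AN8433 among them. AN8439 went from 29.0, 30.8 and 33.0 CPM to 0.434, 0.619 and 0 CPM and AN11079 from 60.1, 61.0 and 55.8 CPM to 1.12, 1.62 and 0.915 CPM. AN8434 and AN8435 had 1 read each in the mutant, and the median log2 fold change of the run was -7.05, or -6.41 with the genes of 0 to 3 reads at their limit. AN8431 (0.98, but called higher without WT replicate 1 at 1.08 or Δ*laeA* replicate 3 at 1.04) on one side and AN11081 (-0.79, or -1.11 with library totals alone) on the other were no DEGs, whereas AN8444, the third tested gene beyond AN11081, rose from 2.55 to 36.8 CPM (log2 fold change 3.77). The run from AN9178 to AN9493 also held 9 lower genes, at lower WT levels. It includes *ayg1*, named after a conidial pigment gene of *A. fumigatus* (1.15 to 0.235 CPM, log2 fold change -2.32), *ugd2* (17.7 to 4.84 CPM, -1.88) and AN9174 (14.4 to 0.254 CPM, -5.83). The run was bounded by AN9179 (-0.47) and *mfsA* (-0.99), which lay at the 2-fold minimum and was past it with library totals alone (-1.32), a minimum of 10 counts (-1.02), only the 6 libraries compared (-1.005) and DESeq2 (-1.001), and without WT replicate 2 (-1.04) or Δ*laeA* replicate 3 (-1.01). Close to its ends, AN9180 (-1.54) and AN9165 (27.0 to 0.148 CPM, -7.50) were DEGs as well.

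The longest higher run held 9 genes from AN3282 to AN10402, with a median log2 fold change of 1.76. AN3280 rose from 1.70, 2.81 and 2.52 CPM to 18.7, 18.2 and 18.2 CPM (log2 fold change 2.89) and AN3279 from 1.59 to 8.73 CPM (2.44). Beyond AN3284 (0.86, no DEG, but 1.40 and called without WT replicate 2) lay 3 lower DEGs, AN3285, AN3286 and AN3287 (-1.25 to -1.72), of which AN3287 was not called without WT replicate 2 (-1.49) or Δ*laeA* replicate 3 (-1.41). In the run of 8 genes from AN6753 to AN6760 the median was 1.70, and AN6753 rose from 39.1, 39.2 and 39.1 CPM to 191, 184 and 192 CPM. The run of 7 genes from AN8525 to AN8532 had a median of 2.05, and was taken before the equally long run from AN8901 to AN11142 for its larger median (1.57 in the latter). Its member AN8526 had 2 reads in WT, all in 1 library, and 8.62, 8.95 and 9.20 CPM in Δ*laeA* (ratio 354, interval 98.0 to 2922). The call of its member AN8530 (log2 fold change 1.09) was lost without Δ*laeA* replicate 3 (0.92). AN8533, next to this run, fell (-1.90), and the gene after it, the purine transporter gene *azgA*, rose from 85.0 to 204 CPM (1.26, or 0.94 with library totals alone). The libraries labelled Δ*veA*, compared with the same WT libraries, shared much of these runs. Of the 3 longest lower runs, 13 of 13, 9 of 9 and 8 of 9 genes were lower DEGs there as well. Of the 3 longest higher runs, 6 of 9, 7 of 8 and 5 of 7 genes were higher DEGs there.

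**Figure D3:**
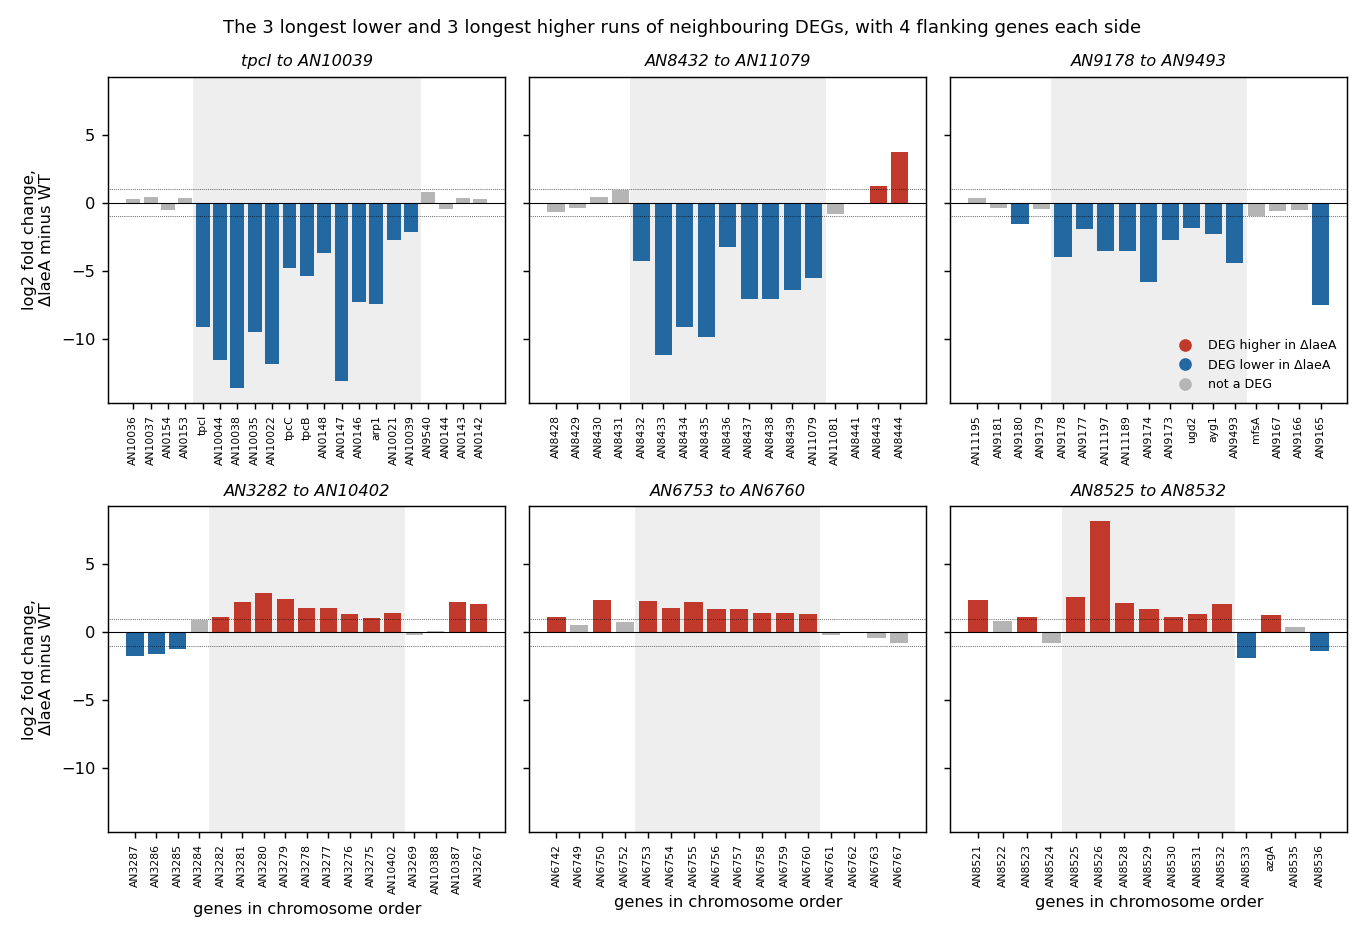
Log2 fold change (ΔlaeA minus WT, y axis) of each gene in chromosome order (x axis) for the 3 longest lower runs (top) and the 3 longest higher runs (bottom), with the run shaded and 4 tested genes on each side. Blue and red bars are lower and higher DEGs, grey bars are genes that were no DEG; the lower runs have medians of -7.46, -7.05 and -3.52 and the higher runs 1.76, 1.70 and 2.05, and the bars of AN10038, AN0147 and AN8437, which had no read in ΔlaeA, show fitted values that depend on the prior count.

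A longer stretch with many runs lay between AN7854 and AN7937, picked out after the runs were seen and so given as a description. Of its 71 tested genes, 38 (53.5%) were higher and 6 were lower DEGs, and 6 of the 21 higher runs lay in it. AN7895 went from 12.3, 12.6 and 12.8 CPM in WT to 94.5, 97.1 and 98.9 CPM in Δ*laeA* (log2 fold change 2.94), AN7896 rose from 3.32 to 25.8 CPM (2.95) and AN7900 from 0.265 to 2.70 CPM (3.27). AN7918 rose from 1.69 to 9.24 CPM and AN7921 from 4.28 to 35.3 CPM. AN7892 had far more reads and rose from 1333, 1371 and 1353 CPM to 5649, 5471 and 5575 CPM. In the midst of these rises 3 adjacent tested genes fell: AN7909 from 11.5 to 0.796 CPM, AN7911 from 15.1 to 0.927 CPM and AN7912 from 44.9, 45.3 and 42.5 CPM to 2.67, 3.05 and 1.88 CPM (log2 fold change -4.12, SE 0.136, adjusted p = 2.42e-23, edgeR). The next genes, AN7913 (41.5 and 38.7 CPM) and AN7914 (79.2 and 69.2 CPM), were close to their WT levels (log2 fold changes -0.10 and -0.19). Elsewhere in the stretch AN7926 fell from 4.86 to 0.418 CPM (-3.53), and AN7927 (-1.94) and AN7864 (-1.44) were the other lower DEGs. Compared with the same WT libraries, the libraries labelled Δ*veA* had 15 higher DEGs in this stretch, 14 of them also higher in Δ*laeA*, and 16 lower DEGs. Their log2 fold changes were 2.36 for AN7892, 1.92 for AN7921, -0.07 for AN7900, -0.21 for AN7918, -1.35 for AN7895, -2.34 for AN7896, -2.33 for AN7909, -3.67 for AN7911 and -3.73 for AN7912. AN7897 (1.30 to 2.71 CPM) lost its call without Δ*laeA* replicate 2 (0.96).

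**Figure D4:**
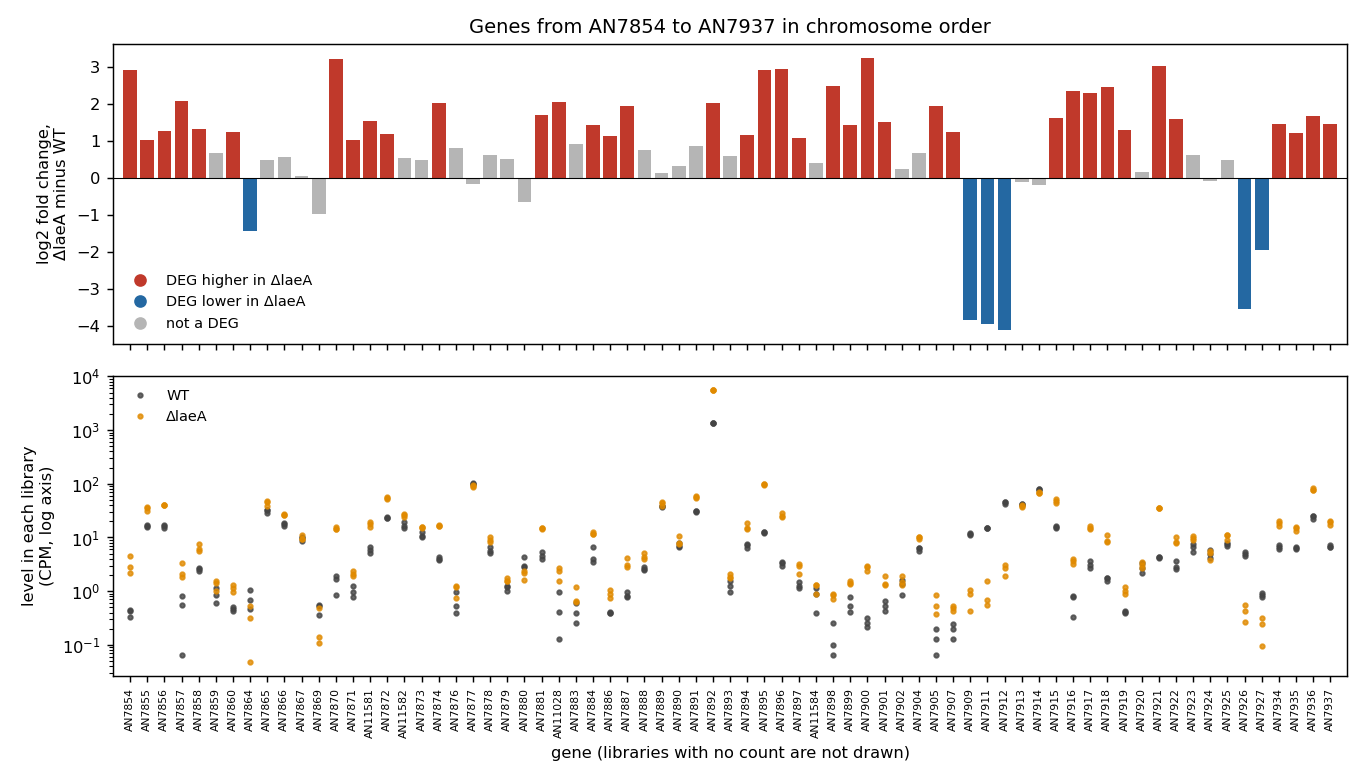
The 71 tested genes from AN7854 to AN7937 in chromosome order (x axis), with the log2 fold change (ΔlaeA minus WT) above and the level in each of the 3 WT (grey) and 3 ΔlaeA (orange) libraries in CPM on a log axis below. Red bars mark 38 higher and blue bars 6 lower DEGs, and AN7909, AN7911, AN7912 and AN7926 stand out as falls between higher runs.

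DEGs were more frequent near chromosome ends, given here as a description with no test. Among the 800 tested genes that lay within 50 genes of an end, 21.4% were higher and 24.1% lower DEGs, and among the 2523 genes more than 400 genes from both ends 6.50% and 12.9%. The share of higher DEGs went down step by step, with 11.9%, 10.3% and 8.47% in the bins between (51 to 100, 101 to 200 and 201 to 400 genes). Genes within 100 genes of an end also had lower levels, with a median of 10.2 CPM in WT against 30.6 CPM elsewhere, and the part of this level in the result was not tested.

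Among genes with names from secondary metabolism, 12 of the 24 tested in 2 lists were lower DEGs. Of 12 tested genes in the first list, 6 were lower DEGs (*tpcI*, *tpcB*, *tpcC*, *tpcA*, *fmaF* and *ivoA*) and 1 was a higher DEG (*fmaG*), with a median log2 fold change of -1.17 against -0.0041 over all genes. In a list of 12 further names, 6 were lower and 1 was higher. *nrps1*, named after a nonribosomal peptide synthetase gene of *A. fumigatus*, went from 276, 283 and 281 CPM in WT to 8.93, 8.90 and 8.56 CPM in Δ*laeA* (log2 fold change -4.99, SE 0.0815, adjusted p = 9.63e-32, edgeR). The genes named after the fumagillin cluster of *A. fumigatus* went both ways: *fmaF* (12.5 to 1.02 CPM), *fma-AT* (12.8 to 0.983 CPM) and *fma-PKS* (17.8 to 6.59 CPM) fell, and *fmaG* rose from 31.4, 29.2 and 26.2 CPM to 64.8, 61.4 and 66.8 CPM (log2 fold change 1.16, or 0.83 with library totals alone). *gliT*, the namesake of a gliotoxin self-protection gene of *A. fumigatus*, was the other higher DEG (8.25 to 24.8 CPM, 1.61). *nscC* (-1.50) and *nscB* (-1.04), named after the neosartoricin cluster of other fungi, fell by less, and the call of *nscB* was lost without WT replicate 1 (-0.83), WT replicate 3 (-0.99) or Δ*laeA* replicate 1 (-0.76). Of 25 symbols looked for among regulators of secondary metabolism 9 were found, and *laeA* itself was the only DEG among these. Regulators without a RefSeq symbol are not covered.

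Regulators of conidiation, the formation of asexual spores on stalks called conidiophores, leaned downward, with 5 lower and 1 higher DEGs among 14 and a median log2 fold change of -0.48. *brlA*, the central activator of conidiophore formation, went from 18.5, 15.8 and 15.6 CPM in WT to 1.05, 0.856 and 1.56 CPM in Δ*laeA* (log2 fold change -3.84, SE 0.204, adjusted p = 1.34e-17, edgeR). *tmpA*, a transmembrane protein gene that acts upstream of *brlA*, fell from 73.2, 78.5 and 74.7 CPM to 1.74, 2.38 and 1.56 CPM (-5.30). These were the largest falls in the list. *flbC* (90.6 to 25.4 CPM) and *stuA* (571 to 253 CPM) also fell, and *flbD*, another upstream activator, rose from 32.8 to 70.6 CPM (1.12, or 0.80 with library totals alone). *abaA*, which acts after *brlA*, was called lower (2.11 to 0.977 CPM, -1.08), but not without Δ*laeA* replicate 1 (-0.92) or replicate 3 (-0.94). *medA*, a modifier of development, had a log2 fold change of 0.74 and was no DEG.

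Of 17 symbols looked for in conidial pigment, wall and spores 7 were found. Of these 7 genes 4 were lower DEGs, with a median of -1.51. The hydrophobin gene *rodA* fell from 11.7, 12.6 and 12.4 CPM to 0.372, 0.571 and 0.484 CPM, and *catA*, the spore catalase, from 17.5, 14.2 and 15.1 CPM to 1.61, 2.19 and 2.74 CPM. *ivoA*, a conidiophore pigment gene, fell from 2.35 to 0.795 CPM. The call of the hydrophobin gene *dewA* (0.683 to 0.193 CPM, -1.83) was lost without WT replicate 2 (-1.57), Δ*laeA* replicate 1 (-1.33) or Δ*laeA* replicate 2 (-1.45). All 10 listed markers of conidia and conidiophores were found, none was at 0 in WT, and 5 were lower DEGs; their summed level ranged from 98.4 to 98.7 CPM in WT and from 50.9 to 57.3 CPM in Δ*laeA*. These markers thus had reads in vegetative WT cells, and their part in the other results was not tested.

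Of 33 symbols looked for in sexual development 10 were found. Of these 10 genes 3 were lower DEGs, against 14.5% of all genes tested. *esdC*, an early sexual gene, went from 1894, 1849.8 and 1853 CPM in WT to 338, 332 and 357 CPM in Δ*laeA* (log2 fold change -2.45, SE 0.0475, adjusted p = 1.07e-29, edgeR). The pheromone receptor gene *preA* (23.0 to 9.29 CPM, -1.32) and the mating-type gene *MAT1* (2.34 to 1.02 CPM, -1.21) fell by less, and *steA* (-0.84, or -1.16 and called with library totals alone) was no DEG. Of the 6 markers listed for sexual cells, 3 were found; their summed level, most of it *esdC*, was 2072 to 2146 CPM in WT and 525 to 564 CPM in Δ*laeA*, and its part in the result was not tested. Of 13 symbols looked for in the velvet complex and its partners 6 were found, and *laeA* was the only DEG among these.

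Of 15 symbols looked for in nitrate assimilation 4 were found, and 3 of these genes were higher DEGs, or 2 with library totals alone. The neighbouring genes *crnA*, *niiA* and *niaD*, for the nitrate transporter, nitrite reductase and nitrate reductase, were all higher DEGs, and *nirA*, their activator, was not (0.27, or -0.056 with library totals alone). *niiA* went from 3568, 3538 and 3472 CPM in WT to 10261, 10418 and 10622 CPM in Δ*laeA* (log2 fold change 1.57, SE 0.0407, adjusted p = 3.47e-26, edgeR), and *crnA* rose from 77.1, 71.1 and 73.3 CPM to 238, 215 and 226 CPM (1.62). *niaD* (642 to 1296 CPM, 1.01) lay at the 2-fold minimum and was under it without WT replicate 2 (0.997) or WT replicate 3 (0.99), with library totals alone (0.69), with at least 10 counts in every library (0.986) and with only the WT and Δ*laeA* libraries (0.999). In other nitrogen supply 11 of 43 symbols looked for were found, of which 2 were higher DEGs and 3 lower, with a median of -0.06. The neighbours *prnB*, for the proline permease, and *prnC*, for an enzyme of proline breakdown, moved apart, *prnB* from 0.313 to 2.48 CPM (3.13) and *prnC* from 21.5, 19.5 and 21.6 CPM to 3.22, 2.09 and 2.80 CPM (-2.96). Adjacent genes of phenylalanine and tyrosine breakdown fell, *fahA* from 6.37 to 1.26 CPM and *maiA* from 5.39 to 1.17 CPM, and *hmgA*, beside them, went from 29.4 to 17.1 CPM (-0.78, no DEG, or -1.10 and called with library totals alone). *glnA*, for glutamine synthetase, was at 4304 and 7089 CPM (0.72, no DEG). Of 10 genes of amino acid synthesis, the marker *metG* was the only DEG. Of the 10, 9 were above WT, 8 of them with an adjusted p under 0.05, against 36.6% of all genes tested. The median log2 fold change was 0.35, or 0.02 with library totals alone, under which 5 were above WT.

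In central carbon metabolism the named genes split. The glycolysis genes *gpdA*, with 3224, 3184 and 3333 CPM in WT against 9845, 9157 and 9749 CPM in Δ*laeA* (log2 fold change 1.56, SE 0.0447, adjusted p = 4.91e-25, edgeR), and *pgkA* (2547 to 5493 CPM, 1.11) rose. The other 3 of the 5 genes found, of 24 symbols looked for, were below their WT level (-0.59 to -0.83) without being DEGs. All 3 had an adjusted p under 0.05, and 1 of them was called lower with library totals alone and 1 with glmTreat. With library totals alone *pgkA* (0.78) was no longer past 2-fold, which left 1 higher DEG. Of 35 symbols looked for in acetate, glyoxylate and ethanol use 5 were found. Of these 5 genes 1 was a DEG, *mcsA*, the methylcitrate synthase gene, which fell from 40.4 to 8.73 CPM (-2.19). Of 7 tested genes for the breakdown of plant polymers *eglD* was the only DEG (0.911 to 2.66 CPM, 1.48).

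The siderophore and iron list as a whole leaned neither way, with 1 higher DEG among 13, 7 members below WT and a median log2 fold change of -0.04. With library totals alone it held 3 lower DEGs and its higher DEG was lost, which was *mirB*, for a siderophore transporter (66.5 to 143 CPM, 1.10, or 0.78 with library totals alone). Outside that list and chosen after their values were seen, *sit1*, named after a siderophore transporter gene, rose from 8.48, 7.67 and 8.85 CPM to 44.1, 44.8 and 45.9 CPM (2.45), and *sit2* from 7.45 to 41.0 CPM (2.45). All 8 genes of iron-sulfur and haem synthesis were above WT with an adjusted p under 0.05, against 36.6% of all genes tested. The median of this list was 0.56 (0.23 with library totals alone, under which 6 of the 8 stayed above WT). Its 2 DEGs were *hem13*, for coproporphyrinogen oxidase, with 1086, 1221 and 1169 CPM in WT against 4013, 3968 and 4004 CPM in Δ*laeA* (1.79), and *nar1*, for cytosolic iron-sulfur assembly (31.4 to 107 CPM, 1.77). *zrfC*, the neighbour of *aspf2* and like it tied to zinc uptake in *A. fumigatus*, rose from 6.52, 4.54 and 5.25 CPM to 27.2, 26.6 and 25.7 CPM (2.34), and *zrfA* (1.01) did so only just, losing its call without WT replicate 2 (0.75) or Δ*laeA* replicate 2 (0.97), with library totals alone (0.69), a minimum of 10 counts (0.986), only the WT and Δ*laeA* libraries (0.994) and DESeq2 (0.986). The respiratory genes *cox15*, for haem A synthesis (70.4 to 227 CPM, 1.69), and *cox5b* (808 to 1837 CPM, 1.18, or 0.86 with library totals alone) were higher as well.

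In sterol and lipid synthesis 2 of 18 genes were higher and 2 lower DEGs. *erg1*, for squalene epoxidase (328 to 752 CPM, log2 fold change 1.20), and *erg20*, for farnesyl diphosphate synthase (58.8 to 133 CPM, 1.18), rose, with 0.87 and 0.86 under library totals alone, and *ergS* (6.02 to 0.913 CPM, -2.74) and *erg8*, for phosphomevalonate kinase (463 to 213 CPM, -1.12), fell. These shares lie near those over all genes (9.90% and 14.5%), and with library totals alone 3 genes of the list were lower DEGs and no rise was past 2-fold. Of 9 genes for catalases, superoxide dismutases and redox regulators, the thioredoxin reductase gene *trr1* rose from 131, 109 and 116 CPM to 546, 508 and 537 CPM (2.17, SE 0.058, adjusted p = 2.64e-25, edgeR). Besides *catA*, the catalase gene *cat1* fell in that list, from 2508, 2100.3 and 2209 CPM to 1022, 1035 and 1062 CPM (-1.13).

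Cell wall genes changed one by one. Of 21 genes of wall remodelling 3 were higher DEGs, *chiA1*, *exg1*, for an exo-glucanase (27.5 to 65.7 CPM, log2 fold change 1.25), and *utr2*, for a wall transglycosylase (1105 to 2630.0 CPM, 1.25), and 2 were lower. With library totals alone *exg1* and *utr2* both had 0.93. *ags2*, named after an alpha-glucan synthase gene of *A. fumigatus*, fell from 79.9, 75.2 and 72.5 CPM to 5.39, 5.52 and 5.38 CPM (-3.80, SE 0.0925, adjusted p = 5.74e-27, edgeR). The call of *scw4* (1.79 to 0.798 CPM, -1.17) was lost without Δ*laeA* replicate 2 (-0.87). Of 8 genes of wall synthesis the chitin synthase genes *chsA* (81.7 to 35.9 CPM, -1.19) and *chsD* (5.62 to 2.78 CPM, -1.01) were lower, and *chsD* was under 2-fold without WT replicate 1 (-0.87), WT replicate 2 (-0.95) or Δ*laeA* replicate 3 (-0.94), and just under it with a replicate block (-0.995). *btgE*, a glucanase gene listed with autolysis, rose from 385 to 858 CPM (1.16, or 0.83 with library totals alone).

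Among signalling genes, those for the G protein-coupled receptors *gprC* and *gprD* rose, *gprC* from 4.56, 5.40 and 4.47 CPM to 44.1, 47.1 and 46.4 CPM (log2 fold change 3.22, SE 0.0874, adjusted p = 1.11e-25, edgeR) and *gprD* from 6.86 to 19.4 CPM (1.56). *pkcA*, for protein kinase C, fell from 345 to 164 CPM (-1.07). The other 15 of the 18 genes found in that list, of 46 symbols looked for, were no DEGs. Of 7 genes of the histidine kinase and response regulator type, the kinase gene *tcsC* rose from 349.5 to 852 CPM (1.28, or 0.96 with library totals alone) and the response regulator gene *skn7* fell from 147 to 50.9 CPM (-1.52). Of 10 calcium genes 2 were lower DEGs, *pmcB*, for a calcium pump (106 to 33.0 CPM, -1.69), and *yvc1*, for a vacuolar calcium channel (35.3 to 14.7 CPM, -1.27). Of 9 secreted peptidase genes *sxa2* was higher (399.5 to 1227 CPM, 1.62), *dppIV*, for a dipeptidyl peptidase, was lower (39.9 to 16.3 CPM, -1.28), and the metalloprotease gene *mep20* had 1.99 CPM in WT and 3 reads in Δ*laeA* (ratio 37.0, interval 12.7 to 179).

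In 4 lists of housekeeping genes the test of edgeR called no DEG. None was found among 8 ribosomal protein genes (median log2 fold change 0.61), 16 proteasome genes (0.20), 21 genes for histones and their modifiers (0.04) or 25 of the cytoskeleton, cell cycle and septation (0.15). All 8 ribosomal protein genes were above WT with an adjusted p under 0.05, against 36.6% of all genes tested. At an unadjusted p under 0.05 the numbers in the 4 lists were 8, 11, 16 and 17 genes, all within 2-fold of WT. The same numbers had an adjusted p under 0.05, against 73.4% of all genes tested. DESeq2 made no DEG call in these lists either. The glmTreat test of edgeR, against 1.5-fold and without the 2-fold minimum, called 3 ribosomal protein, 2 histone and 2 cytoskeleton genes. In the cytoskeleton list 1 gene was called higher without WT replicate 2 or Δ*laeA* replicate 3, and 1 was called lower without Δ*laeA* replicate 1. With library totals alone the medians were 0.28, -0.12, -0.28 and -0.18, so the direction of the last 3 flips with the scaling, and the cytoskeleton list then had 1 lower DEG. Of the 16 peroxisome genes *pxa1* was the only DEG (44.0 to 15.5 CPM, -1.50).

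**Figure D5:**
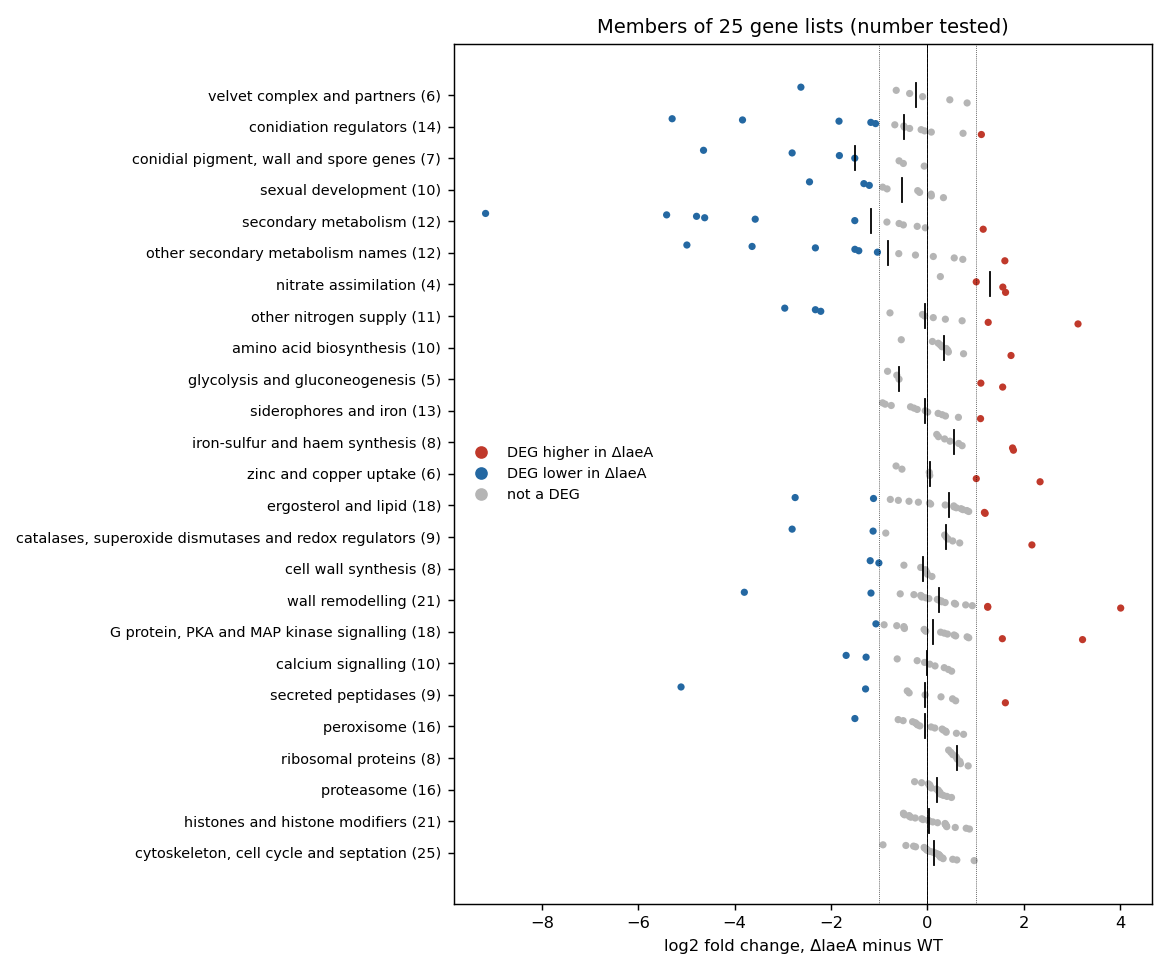
Log2 fold change (ΔlaeA minus WT, x axis) of every tested member of 25 gene lists (y axis, number tested in parentheses), with red for higher DEGs, blue for lower DEGs, grey for other genes and a black bar at each list's median. Lists of secondary metabolism and spore genes extend far to the left (medians -1.17, -0.82 and -1.51), nitrate assimilation lies to the right (1.29), and ribosomal protein, proteasome, histone and cytoskeleton genes stay within 2-fold of WT.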

How the data were processed

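RNA-seq reads of WT, Δ*laeA* and Δ*veA* Vege, 3 libraries each, were mapped by the authors with HISAT2 2.1 and counted per gene with featureCounts 1.5.0, and the counts were deposited without normalization, as whole numbers in 10988 rows per library. The kit marks strand, but how strand was set in featureCounts is not given in the sources used here, so reads of overlapping or antisense genes cannot be told apart. Of the rows, 264 had no read and 31 repeated an identifier.

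Samples were grouped by the genotype in the labels. The counts were fitted with the quasi-likelihood test of edgeR 4.0.16 (robust, TMM factors, filterByExpr) in R 4.3.3, with all 9 libraries in 1 model, and p-values were adjusted by Benjamini-Hochberg over 9481 genes. DEGs were genes past 2-fold whose adjusted p was below 0.05. The SE of a log2 fold change is not an output of this test. It was taken as the absolute log2 fold change divided by the square root of the F statistic. The WT and Δ*laeA* libraries held 13396869 to 35755046 counts on genes, and 3 counts, the floor for a gene without reads, equal 0.143 to 0.186 CPM in the Δ*laeA* libraries. Intervals cover counting error only. Replicate pairs of a group all differed beyond sampling noise.

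Symbols and gene order were read from RefSeq's table for ASM1142v1, to which 10032 rows matched, and its coordinates are not given because another record is cited by the study. A planned search of promoter motifs was not run, since sequences were not used here. The genes named were *laeA*, *veA* and *metG*, the 12 largest rises and falls among DEGs whose libraries did not overlap and whose higher group averaged 50 CPM or more, list members with a symbol, members of the 3 longest runs in each direction, and the 10 DEGs with most CPM in each direction. Outside this rule are the genes next to these, those of the stretch from AN7854 to AN7937, and *sit1*, *sit2*, *cox15*, *cox5b*, *sclB*, *fdh*, *frdA*, *cyn1*, *bna4*, *met16* and *hsp60*, chosen after their values were seen. The comparison, the gene lists and the tests were chosen with earlier results of these data known, and 14 of the lists were added after the symbols had been seen. The lists were not tested as sets.

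Alternatives were no filter, RLE factors, a minimum of 10 counts per library, scaling by library totals alone, a fit of the 6 libraries compared, a replicate block, glmTreat against 1.5-fold, no fold minimum, DESeq2 1.42.0 and each library left out in turn. The replicate block with only the WT and Δ*laeA* libraries was chosen after seeing the data. Python 3.11.15 and matplotlib 3.10.9 were used for tables and plots.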

Additional observations from a re-analysis of the deposited data

How the results depend on the processing

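The count of 2312 DEGs was 2285 to 2516 with RLE factors, library totals alone, no filter, only the libraries compared, the replicate block and DESeq2, and 2311 to 2338 with 1 library left out. It was 1657 with at least 10 counts in every library, 3053 with glmTreat and 6960 with no fold minimum (3470 higher and 3490 lower). The glmTreat counts are of genes with an adjusted p under 0.05 in a test against 1.5-fold, without the 2-fold minimum. With library totals alone 575 DEGs were higher and 1941 lower, and with at least 10 counts in every library 908 were lower. The share of DEGs that were higher was 22.9% with library totals alone, 45.2% with at least 10 counts in every library, 45.4% with glmTreat and 49.9% with no fold minimum. Runs numbered 151 when 3 genes sufficed.

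Same-numbered libraries of the groups did not deviate together (correlations -0.02, 0.04 and -0.03), so the numbers were not taken as pairs. With the replicate block there were 2306 DEGs, or 2285 with only the WT and Δ*laeA* libraries, and the log2 fold change of *laeA* stayed past the threshold. Leaving out 1 library gave -2.75 to -2.54 for *laeA*. Of 82 counts of DEGs in lists, 28 moved with glmTreat, 22 with library totals alone and 7 with at least 10 counts. Of the genes named with a log2 fold change, *nirA* changed direction (0.27, or -0.056 with library totals alone), and no other did so under any alternative.

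Depth limits genes with few reads. Of the DEGs, 95 lower ones were under 1 CPM in WT and 55 higher ones under 1 CPM in Δ*laeA*. One strain per genotype and the marker at *laeA* limit what the comparison can show.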

Other observations

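Further named genes changed, most of them outside the gene lists. *fdh*, for formate dehydrogenase, went from 975, 876 and 902 CPM in WT to 80.1, 77.2 and 77.9 CPM in Δ*laeA* (log2 fold change -3.55, SE 0.0533, adjusted p = 1.2e-32, edgeR). *sclB*, a transcription factor gene of asexual development in *A. nidulans*, fell from 43.4, 41.9 and 42.6 CPM to 3.60, 3.43 and 2.96 CPM (-3.68), and the cyanate hydratase gene *cyn1* fell 4.12-fold from 41.2 CPM (-2.04). In the other direction, *frdA*, for a fumarate reductase, rose from 775, 752 and 732 CPM to 2512, 2378 and 2456 CPM (1.70), and *bna4*, for an enzyme of the kynurenine pathway, from 39.2 to 136 CPM (1.80). The sulfate assimilation gene *met16* (110.1 to 252 CPM, 1.20, or 0.87 with library totals alone), *phoB* of the phosphate list (73.0 to 184 CPM, 1.33) and the mitochondrial chaperonin gene *hsp60* (813 to 1682 CPM, 1.05, or 0.73 with library totals alone) were higher too, and *aspf34*, named after an *A. fumigatus* allergen and in the list of such names, was lower (25.3 to 8.46 CPM, -1.57). The libraries of WT and Δ*laeA* did not overlap for any of these 9 genes.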
